A study of Arabidopsis thaliana with 12 samples.

Results

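Compound 7303, known here by its code alone, was given at 10 µM to seedlings of the Arabidopsis thaliana mutant eto1-4, and their transcripts were compared with those of untreated eto1-4. The comparison rests on 4 of the 12 arrays of the series, 2 of eto1-4 with 7303 and 2 of eto1-4 without any compound, and takes in every probe set other than the array controls. All seedlings were of the Col-0 ecotype, grew in the dark on 0.5x MS medium for 3 days and were harvested whole for total RNA, so tissues are mixed, and fewer cells of a type cannot be told apart from less RNA per cell. The other 8 arrays hold, 2 each, untreated wild-type Col-0 and eto1-4 grown with 10 µM 9393, 9370 or AVG (aminoethoxyvinylglycine, an inhibitor of ACC synthase), and they enter below as points of reference. The question posed was how antagonists of ethylene act in a mutant that makes too much of the hormone.

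Ethylene is made from methionine through the intermediate ACC, and ETO1 encodes a protein that marks a class of ACC synthases for degradation. Loss of ETO1 therefore raises ethylene, and dark-grown seedlings of the mutant show the short, thick hypocotyl and tight apical hook that ethylene gives the wild type. The hormone is sensed by membrane receptors that signal through EIN2 to the transcription factor EIN3, and in dark-grown seedlings it alters cell elongation, the cell wall and auxin transport. ETO1 itself was not among the genes named here, so the genotype was not checked at that gene.

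The 4 arrays were alike in median signal, at 180 and 170 in untreated eto1-4 and 159 and 163 with 7303, and in the 3′ to 5′ ratio of GAPDH, a sign of RNA integrity, which ran from 1.31 to 1.60. They were not alike in their labelling controls. The 8 poly-A spike probe sets had a median signal of 12.1 on replicate 1 of untreated eto1-4, 74.1 on its replicate 2, and 125 and 124 with 7303, so the first untreated array alone lacked the spike. That array also held more 25S ribosomal RNA signal (9784) than its partner (2260), while the 7303 arrays had 5770 and 494. The root gene PYK10 gave 18141 and 16737 in untreated eto1-4 and 17790 and 17045 with 7303, the single root marker measured. No marker of dark-grown or of green tissue, of shoots or of pollen was measured. Values below are MAS5 signals in the order replicate 1 and replicate 2. A change is a difference of log2(signal + 22.4) with its standard error (SE) from limma, and a gene rose or fell where its adjusted p was under 0.05. Signals of different probe sets are not set against each other.

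With 7303, 696 of 14830 tested probe sets changed, which is 4.69%, and more rose than fell: 441 (2.97%) rose and 255 (1.72%) fell. Of those that rose, 349 did so by over 1 on the log2 scale, 82 by over 2 and 22 by over 3, and of those that fell, 189, 40 and 8 did so. The median change was 1.34 among the probe sets that rose, -1.29 among those that fell and -0.05 among all that were tested. At an unadjusted p under 0.05 there were 3516. In all 696 both treated arrays lay on one side of both untreated arrays, as they did for 60.5% of all tested probe sets (27.8% above and 32.8% below). The 696 hold 356 named genes, 53 of them with a gene symbol (30 higher, 23 lower), and 328 further probe sets that the annotation used here does not list with a gene. Among the probe sets without a listed gene are the largest rise of all, of 4.95, and changes of -4.13 and -3.99.

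**Figure D1:**
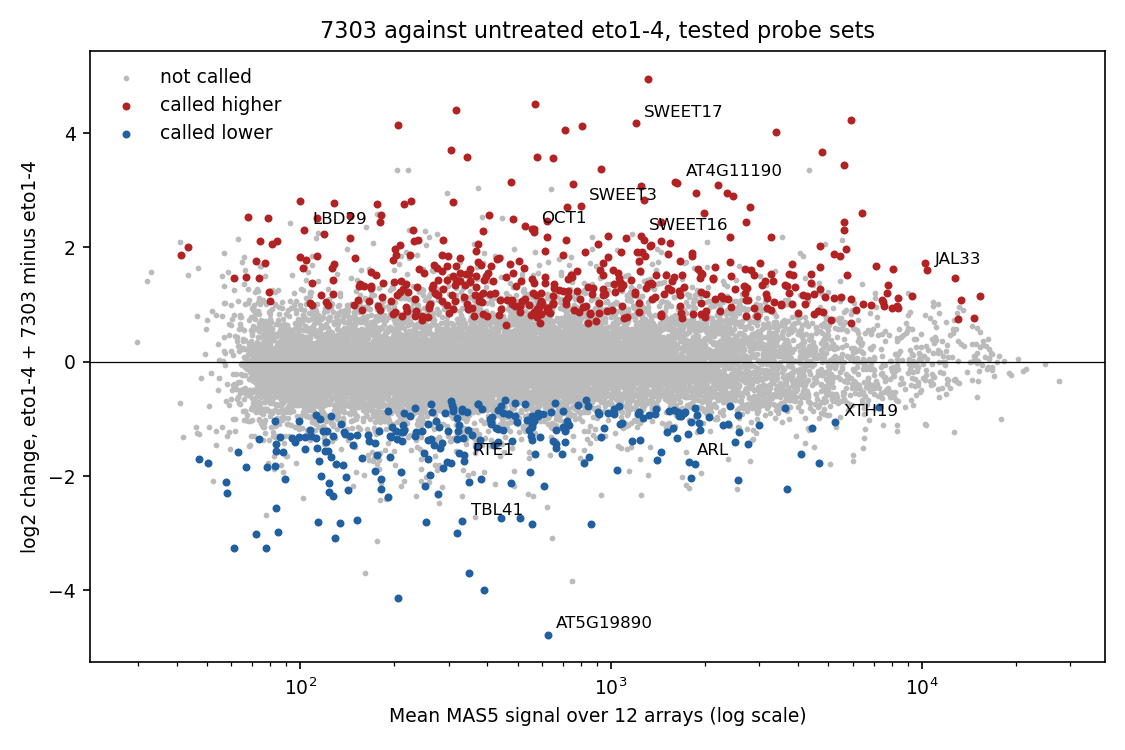
Change under 7303 (log2 scale, vertical) against the mean MAS5 signal over 12 arrays (log scale, horizontal) for the 14830 tested probe sets; red points rose, blue points fell and grey points did not pass. The 441 red and 255 blue points run across the whole range of signal, and SWEET17 at 4.18 and AT5G19890 at -4.77 are labelled near the extremes.

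Among genes of ethylene sensing, RTE1 fell. It encodes a membrane protein that dampens the ethylene response by acting on the ETR1 receptor. Its signals were 788 and 782 in untreated eto1-4 and 238 and 203 with 7303. Replicates of each group lay close together and the groups were far apart, a change of -1.74 ± 0.30 (adjusted p = 0.0166). The other 3 measured members of the list did not pass: EIN3 had a change of 0.28 (adjusted p = 0.587), RTH, the homolog of RTE1, 0.10 (0.807), and ETP2, an F-box protein that targets EIN2, -0.12 (0.754). For EIN3 the signals were 2264 and 3015 without and 3392 and 2978 with the compound, and these overlapped. In ethylene synthesis, ARD4 of the methionine salvage cycle changed by 0.36 (adjusted p = 0.442) and the methionine-degrading enzyme MGL by 0.61 (0.596), neither past the threshold.

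A pair of growth regulators fell along with RTE1. ARL (ARGOS-like), which promotes cell expansion in growing organs, gave 4542 and 3761 without and 1247 and 1187 with 7303, a change of -1.75 ± 0.37 (adjusted p = 0.034). The treated arrays were both below the untreated ones, and wild-type Col-0 lay lower still, at 791 and 631. LEP (LEAFY PETIOLE), a factor of the AP2/ERF family, gave 476 and 386 without and 200 and 146 with the compound, a change of -1.22 ± 0.28 (adjusted p = 0.0409). With 178 and 131 in Col-0, the LEP signals of treated eto1-4 overlapped those of the wild type.

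Of 11 measured auxin-responsive genes, 2 rose and none fell, beside 2.97% and 1.72% of all probe sets, and the median change was 0.80 against -0.05 over all. LBD29, a transcription factor of lateral root initiation, gave 26.7 and 13.2 without and 171 and 198 with 7303, a change of 2.31 ± 0.32 (adjusted p = 0.00995). Untreated signals of LBD29 lay near the offset, so the size depends on it, and with an offset at the 40th percentile the change was 1.299. GH3.17, an enzyme that joins auxin to amino acids, gave 479 and 887 without and 2105 and 2468 with the compound, a change of 1.77 ± 0.43 (adjusted p = 0.0464). Both genes were thus higher on each treated array than on either untreated array. Related GH3 enzymes had positive values that did not pass: 1.23 for GH3.1 (adjusted p = 0.218), 0.95 for GH3.3 (0.164) and 0.93 for WES1 (0.249). The repressor genes IAA20 (-0.97, adjusted p = 0.0655) and IAA34 (-0.99, 0.165) had negative values. Without replicate 1 of untreated eto1-4 the median of these 11 genes was 0.31 and none passed, nor did any without either array of 7303. IAGLU, which joins auxin to glucose and is on no list, fell from 1955 and 2039 to 772 and 798, a change of -1.32 ± 0.27 (adjusted p = 0.0306).

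Sugar transporters held more of the named rises than any other list. Of 10 measured, 4 rose and none fell, all 4 from the SWEET family of sugar uniporters, and the median change of the 10 was 1.098. Of all tested probe sets 2.97% rose. The number of sugar transporters that rose was 1 without replicate 1 of untreated eto1-4 and likewise without replicate 1 of 7303, and 0 without replicate 2 of 7303. SWEET17, a fructose carrier of the vacuolar membrane, gave 61.5 and 121.9 in untreated eto1-4 and 1694 and 2298 with 7303. This was the largest rise of any named gene on the log2 scale, 4.18 ± 0.61 (adjusted p = 0.0109), a ratio of means of 21.8. SWEET3 gave 157 and 179 without and 1130 and 1336 with the compound, a change of 2.72 ± 0.43 (adjusted p = 0.0126). SWEET16, a second vacuolar carrier, gave 390 and 392 without and 1737 and 2017 with it, a change of 2.20 ± 0.21 (adjusted p = 0.00349). The untreated arrays of SWEET16 were nearly equal, and the gene still passed without replicate 1 of untreated eto1-4 (2.19, adjusted p = 0.0314). SWEET11, a sucrose carrier of the plasma membrane that loads the phloem, gave 2691 and 3410 without and 6264 and 7177 with 7303, a smaller change of 1.14 ± 0.26 (adjusted p = 0.0382).

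The remaining 6 sugar transporters did not pass, and their values were not all of one sign. SWEET2 had 326 and 1116 without and 1403 and 2402 with 7303, a change of 1.56 whose untreated arrays were far apart (adjusted p = 0.19). SFP1 had a change of 1.05 (adjusted p = 0.0753), TMT2 0.43, SFP2 0.07 and TMT1 -0.11, while SWEET1 went to -0.74 (adjusted p = 0.0889). A gene of sugar cleavage rose as well: cwINV6, a fructan exohydrolase of the cell wall invertase family, gave 92.9 and 162 without and 555 and 450 with 7303, a change of 1.84 ± 0.34 (adjusted p = 0.0212).

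**Figure D2:**
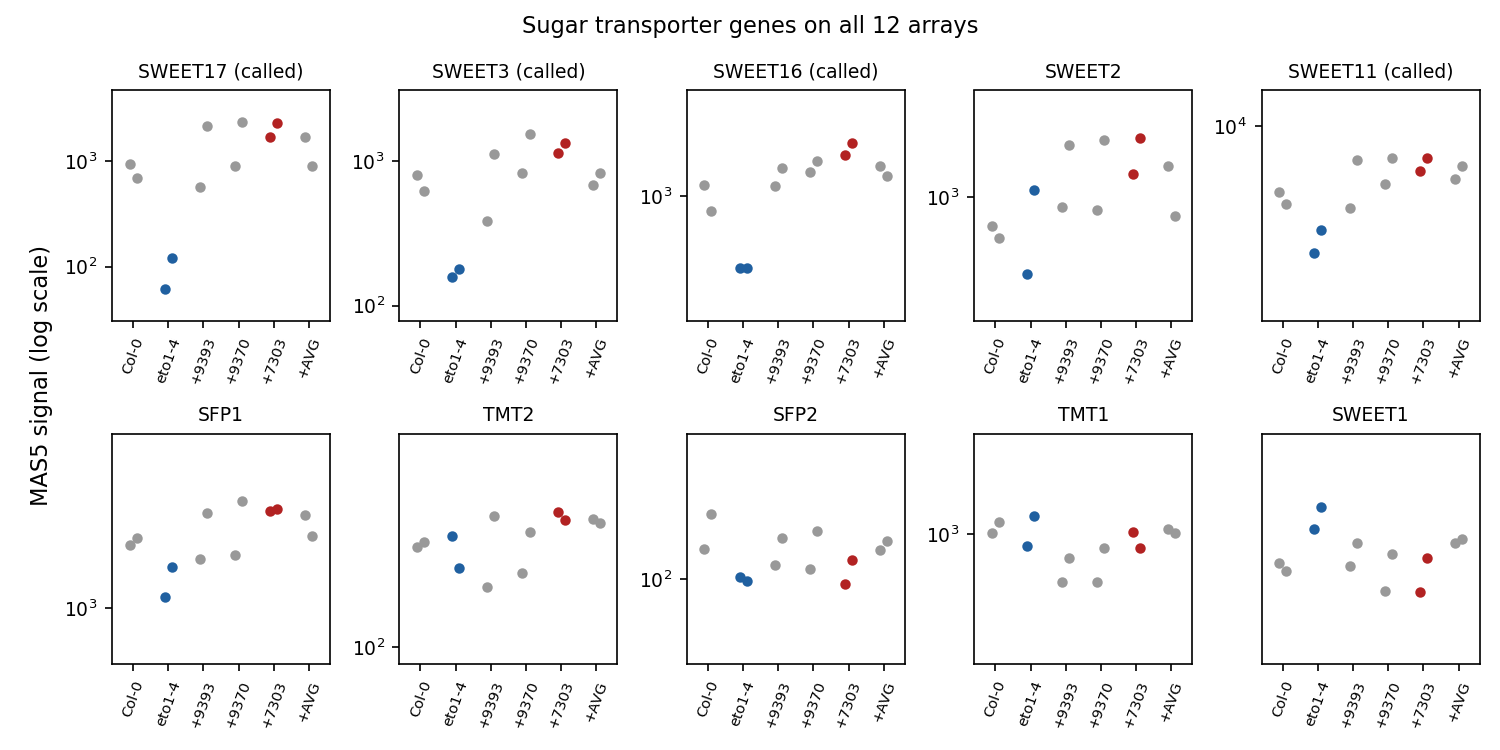
MAS5 signal (log scale) of the 10 measured sugar transporter genes on all 12 arrays, by group, 1 point per array; blue is untreated eto1-4, red is eto1-4 with 7303 and grey the other groups. For SWEET17, SWEET3, SWEET16 and SWEET11 both red points lie above both blue points, and the Col-0 points also lie above the blue ones.

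Among genes on no list, a pair that act on starch fell. They were picked out after their values were seen. APL3, a subunit of the enzyme that makes ADP-glucose for starch, gave 211 and 200 without and 69 and 69.5 with 7303, a change of -1.31 ± 0.22 (adjusted p = 0.0165). PWD, a dikinase that phosphorylates starch for its breakdown, gave 977 and 733 without and 367 and 374 with it, a change of -1.14 ± 0.26 (adjusted p = 0.0377). Replicates of both genes agreed closely under 7303.

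Cell wall genes changed in both directions. Of 37 measured genes of cellulose, xylan and structural wall proteins, 2 rose and 3 fell, which is 13.5% beside 4.69% of all probe sets. The median of the 37 was -0.20, or -0.037 without replicate 2 of untreated eto1-4. GH9B12 and GH9B8 belong to the glycosyl hydrolase family of endoglucanases, which act on cellulose, and both fell. GH9B12 gave 350 and 231 without and 35 and 25 with 7303, a change of -2.56 ± 0.35 (adjusted p = 0.00995) that was -1.62 with an offset at the 40th percentile. GH9B8 gave 500 and 347 without and 114 and 74.4 with it, a change of -1.93 ± 0.28 (adjusted p = 0.0109). Members of the TBL family, enzymes that add acetyl groups to wall polysaccharides, divided. TBL41 fell from 834 and 988 to 129 and 97 (-2.79 ± 0.41, adjusted p = 0.0111). TBL37 rose from 1080 and 2427 to 5786 and 7745 (2.03 ± 0.39, adjusted p = 0.0251), and TBL38 rose from 893 and 1180 to 1846 and 1861 (0.84 ± 0.18, adjusted p = 0.0344). In none of these 5 genes did a treated array overlap an untreated one.

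Among enzymes that loosen or remodel the wall, 1 of 7 xyloglucan endotransglucosylases (14.3%), 1 of 14 expansins (7.14%) and 1 of 5 pectin-modifying genes passed, beside 4.69% of all probe sets. XTH19, which cuts and rejoins xyloglucan chains, was the only one of 7 measured family members to pass, at 8282 and 9197 without and 4189 and 4172 with 7303 (-1.06 ± 0.20, adjusted p = 0.0241). The median of the 7 was -1.02, but -0.45 without replicate 2 of untreated eto1-4 and -0.52 without replicate 1 of 7303. XTH26, a root hair gene, had 183 and 392 without and 89.8 and 42.3 with the compound, a value of -1.77 (adjusted p = 0.0761). Of 14 expansins, which loosen wall polymers, EXPB1 alone rose, from 231 and 223 to 405 and 465 (0.87 ± 0.20, adjusted p = 0.042). EXPA9 had 5942 and 4701 without and 1712 and 802 with 7303, a value of -2.15 that did not pass, with the treated arrays far apart (adjusted p = 0.0754). Of 5 pectin-modifying genes, the pectin methylesterase gene ATPMEPCRD rose from 3587 and 5327 to 15390 and 13630 (1.72 ± 0.34, adjusted p = 0.0279). Root hair markers, 3 of 8 measured (EXPA7, EXPA18 and XTH26), summed to 673 and 1375 without and 625 and 390 with 7303, and their part in the cell wall values was not tested.

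**Figure D3:**
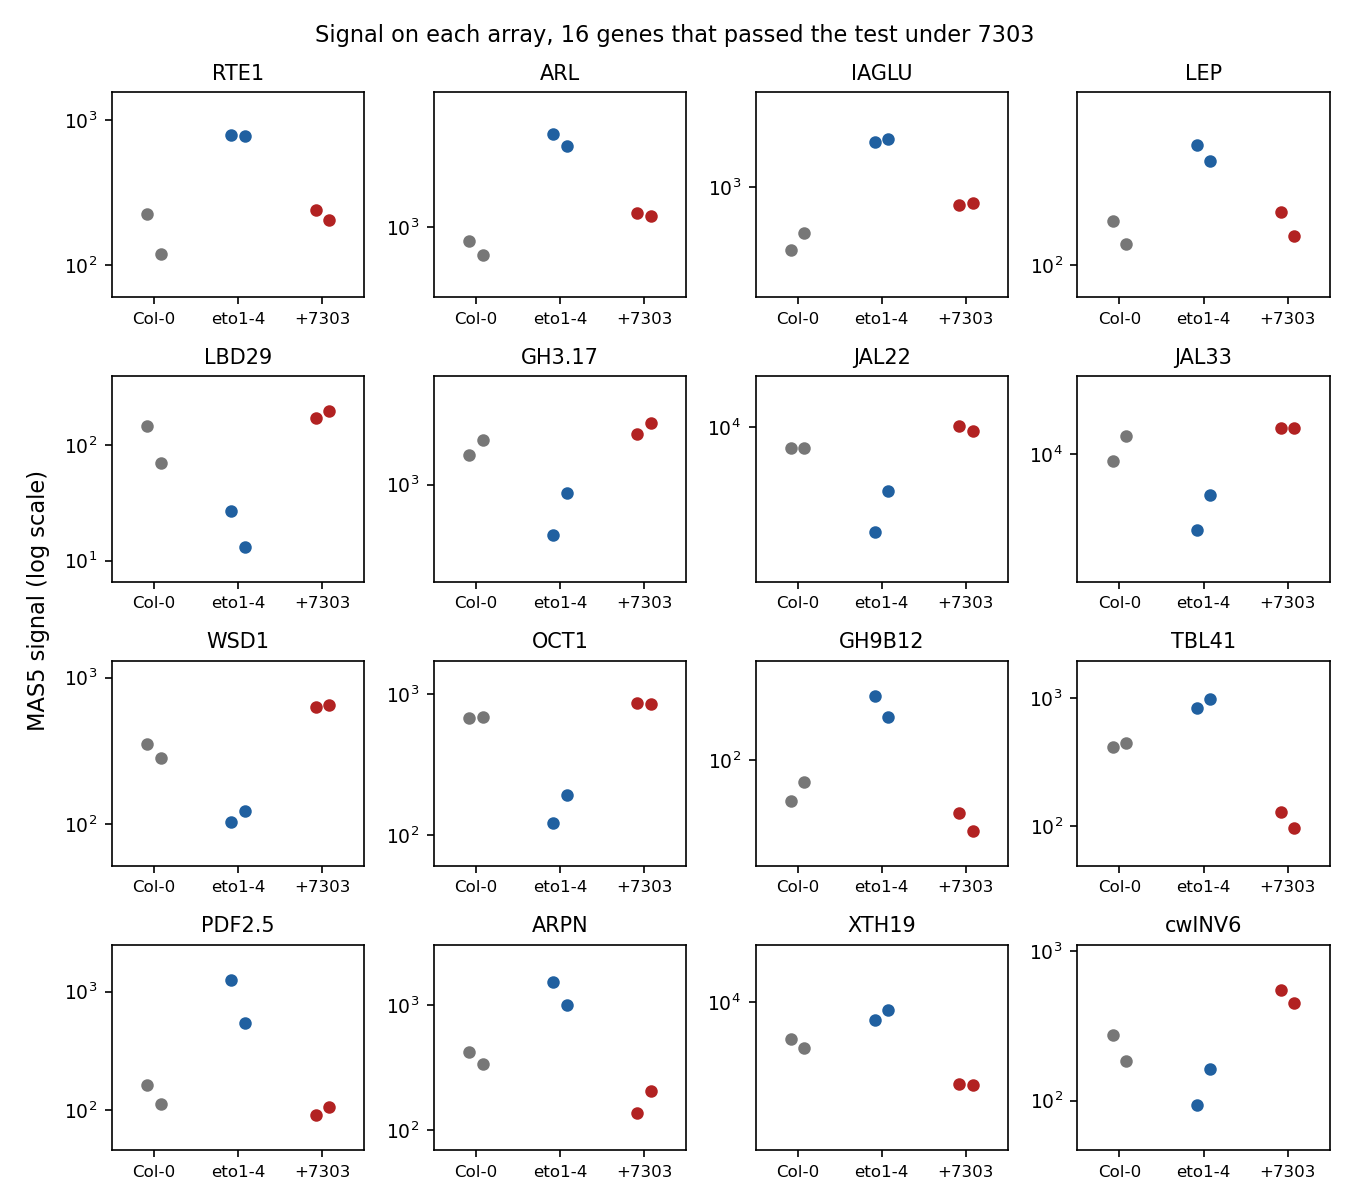
MAS5 signal (log scale) of 16 genes that passed the test, 1 point per array, for Col-0 (grey), untreated eto1-4 (blue) and eto1-4 with 7303 (red). In each panel the red pair is apart from the blue pair; for RTE1 the red points at 238 and 203 lie beside the grey ones at 226 and 119, whereas for GH9B12 and TBL41 they lie below both grey points.

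A pair of genes for jacalin-related lectins, JAL22 and JAL33, rose. In Arabidopsis these sugar-binding proteins form complexes with the beta-glucosidase PYK10 of the endoplasmic reticulum bodies. JAL22 gave 2287 and 4103 without and 10245 and 9521 with 7303, a change of 1.68 ± 0.26 (adjusted p = 0.0125). JAL33 gave 3655 and 5803 without and 14041 and 14068 with it, a change of 1.60 ± 0.28 (adjusted p = 0.0174). JAL34 had 6964 and 8339 without and 14375 and 13359 with the compound, a value of 0.86 that did not pass (adjusted p = 0.0722). PYK10 had a change of 0.00 (adjusted p = 0.998). The beta-glucosidase BGLU15 fell, from 666 and 1065 to 408 and 385 (-1.05 ± 0.22, adjusted p = 0.034). These 2 lectin genes and BGLU15 were the called members of the list of 16 measured glucosinolate, beta-glucosidase and lectin genes. That is 18.8%, beside 4.69% of all probe sets. The median of the 16 was -0.06, or 0.17 without replicate 1 of untreated eto1-4.

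Among 13 measured pathogen defence genes, 1 rose and 1 fell (15.4%, beside 4.69% of all probe sets). The defensin gene PDF2.5 fell from 1245 and 541 to 91.6 and 105, a change of -2.81 ± 0.52 (adjusted p = 0.0212). The class V chitinase gene ChiC rose from 296 and 636 to 1289 and 1213, a change of 1.47 ± 0.36 (adjusted p = 0.046) that was 0.95 against replicate 2 of untreated eto1-4 alone. Plantacyanin (ARPN), a small copper protein of the extracellular space, fell from 1535 and 1012 to 137 and 204 (-2.74 ± 0.57, adjusted p = 0.0312). Treated arrays lay below both untreated arrays for PDF2.5 and ARPN and above both for ChiC.

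A few genes of conjugation and of surface lipids rose, and other members of their lists did not pass. Of 10 glutathione S-transferases, which attach glutathione to foreign and reactive molecules, GSTU26 rose from 704 and 1264 to 2320 and 2222 (1.25 ± 0.30, adjusted p = 0.0467) and GSTF4 from 124 and 79.6 to 251 and 255 (1.17 ± 0.27, adjusted p = 0.0394). The other 8 were not called, so 20% passed, beside 4.69% of all probe sets. Over all 10 the median was -0.19, and it was 0.019 without replicate 2 and -0.38 without replicate 1 of untreated eto1-4. Of 35 UDP-glycosyltransferases on their list only UGT71C2 was called (2.86%), with a rise of 1.22 ± 0.29 (adjusted p = 0.0421). IAGLU, which joins auxin to glucose and fell (-1.32), was not on that list. None of 11 cytochrome P450 genes passed. WSD1, a wax ester synthase, rose from 104 and 123.4 to 629 and 653, a change of 2.29 ± 0.31 (adjusted p = 0.00891). AT5G61590 (DEWAX), a factor known to repress wax synthesis, rose too, by 0.84 ± 0.20 (adjusted p = 0.0435). Of the 4 measured genes on the lipid transfer and wax list, 2 rose, beside 2.97% of all probe sets. The median of the 4 was -0.0016. In 2 of them both treated arrays lay below both untreated ones, as for 32.8% of all probe sets. CCR2, a cinnamoyl-CoA reductase of lignin precursors, rose from 26.1 and 16.5 to 126 and 116 (1.72 ± 0.29, adjusted p = 0.0166), or 0.90 with an offset at the 40th percentile, since its untreated signals lay near the offset.

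Plastid-encoded genes had values below 0 nearly throughout. Of 68 measured, 61 had a negative change, 53 had both treated arrays below both untreated ones and 1 had them above, beside 32.8% below and 27.8% above of all tested probe sets. The test was passed by 2 (2.94%, beside 4.69% of all). The median was -0.68, and it was -0.54 against replicate 1 and -0.84 against replicate 2 of untreated eto1-4. The gene for the large subunit of Rubisco, rbcL, fell from 1269 and 1439 to 545 and 468 (-1.38 ± 0.32, adjusted p = 0.042). The photosystem II core gene psbD fell from 1132 and 969 to 614 and 556 (-0.82 ± 0.18, adjusted p = 0.0369). With spike status as a block rbcL had an adjusted p = 0.0506, and with spiked arrays alone psbD had 0.0607, so each lost its call in 1 of these settings. For rbcL the wild type stood at 1367 and 2022, beside untreated eto1-4 rather than beside the treated seedlings. PORB, the nuclear gene of an enzyme of chlorophyll synthesis, had 13266 and 8170 without and 4521 and 4424 with 7303, a value of -1.22 that did not pass (adjusted p = 0.07). In the list of 30 light harvesting and chlorophyll genes, psbD was the only one called and the median was -0.41, or -0.20 without replicate 2 of untreated eto1-4.

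The most clearly changed gene of all carries only a locus number in the annotation. AT4G11190 gave 182 and 192 without and 1814 and 1817 with 7303, a change of 3.13 ± 0.21 with the lowest adjusted p of the comparison, 0.000555. Its replicates were nearly identical in both groups, and it passed in each of the 23 other settings tried. AT5G19890 had the deepest fall of a called probe set, from 1982 and 3798 to 87.7 and 70.8 (-4.77 ± 0.54, adjusted p = 0.00533). AT3G51410 fell from 931 and 856 to 182 and 201 (-2.10 ± 0.19, adjusted p = 0.00263). AT2G43535 rose from 1096 and 1870 to 8573 and 9010 (2.60 ± 0.27, adjusted p = 0.00369). AT2G41090 fell from 992 and 1005 to 117 and 95.4 (-2.99 ± 0.40, adjusted p = 0.00891). In these 5 genes each group was tight against the distance between groups. Larger rises with wider replicates were those of AT1G72140, from 25.4 and 62.9 to 871 and 1246 (4.06 ± 0.79, adjusted p = 0.0256), and AT4G37220, from 367 and 1034 to 8530 and 7671 (3.66 ± 0.84, adjusted p = 0.0397). With spike status as a block AT4G37220 did not pass (3.32, adjusted p = 0.0521).

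Besides the genes on lists, 23 called genes had a symbol, 10 higher and 13 lower, and those not yet given are named here because they complete the set, after their values were seen. OCT1, an organic cation and carnitine transporter, rose from 121.6 and 194 to 866 and 857 (2.32 ± 0.49, adjusted p = 0.0329). ZCF37 rose from 422 and 457 to 1776 and 1676 (1.92 ± 0.25, adjusted p = 0.00786), and the microtubule-associated protein gene ATMAP65-6 from 624 and 706 to 1927 and 1949 (1.51 ± 0.26, adjusted p = 0.017). All 3 had close replicates and groups far apart. Smaller rises were those of HHP2 (1.29), the ATP sulfurylase gene APS4 (1.15), the sulfurtransferase gene STR18 (0.91), PRA8 (0.88), the organelle fission gene FIS1B (0.83), BAT1 (0.82) and the autophagy gene APG8A (0.81). Falls were those of TRM19 (-1.22), AAE16 (-1.19, not called with spike status as a block), PRA1.B4 (-1.16), the subtilase gene SBTI1.1 (-1.03), the calreticulin gene CRT1b (-0.98), the aldehyde dehydrogenase gene ALDH3F1 (-0.93), the succinate dehydrogenase gene SDH1-1 (-0.92) and the fatty acid amide hydrolase gene FAAH (-0.86). On the lists, the mitotic kinase gene AUR1 rose by 0.79 (adjusted p = 0.033) as the only one called of 9 cell cycle genes (11.1%, beside 4.69% of all probe sets). AT1G59740 (NPF4.3), of the nitrate and peptide transporter family, fell by 1.41 (adjusted p = 0.0421). It was the only one called of the 6 measured on its list (16.7%), which was matched by name and may not hold the whole family.

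Each list holds genes matched by symbol or synonym, so family members without a matching name are absent from it. A list without a called member does not show that its family was unchanged, since called genes without a matching name were not counted. Several lists had no called member. They include gibberellin metabolism and response (5 measured, median -0.06), jasmonate genes (5, median 0.75), class III peroxidases (5, median -0.02), glutaredoxins and thioredoxins (12, median -0.15) and the 22 reference genes of actin, tubulin, ubiquitin conjugation and GAPDH (median 0.01). RR16, the single cytokinin response gene measured, had a value of -1.80 (adjusted p = 0.0561). Seed genes had none called among 9, and their median of -0.99 was 0.28 without replicate 1 of untreated eto1-4. Not all depended on that array: M10 (-4.57 to -1.68) and OLEO3 (-1.63 to -0.54) were negative in every setting that tested them. With spike status as a block 1 of the 9 passed, as a fall, and the median was -0.60. The median was 0.28 with spiked arrays alone and -2.01 without replicate 2 of untreated eto1-4, so its sign and size depended on the arrays used. The storage protein gene PAP85 had 6894 on replicate 1 of untreated eto1-4, 42.6 on replicate 2, and 57.2 and 55.8 with 7303. The 4 measured seed markers of 10 on the list (PAP85, OLEO3, AT3G01570 and M10) summed to 13751 and 2072 in untreated eto1-4 and to 1473 and 1039 with 7303. Replicate 1 of the untreated mutant thus held several times more seed marker signal than the other 3 arrays, and the part of this in the other changes was not tested.

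**Figure D4:**
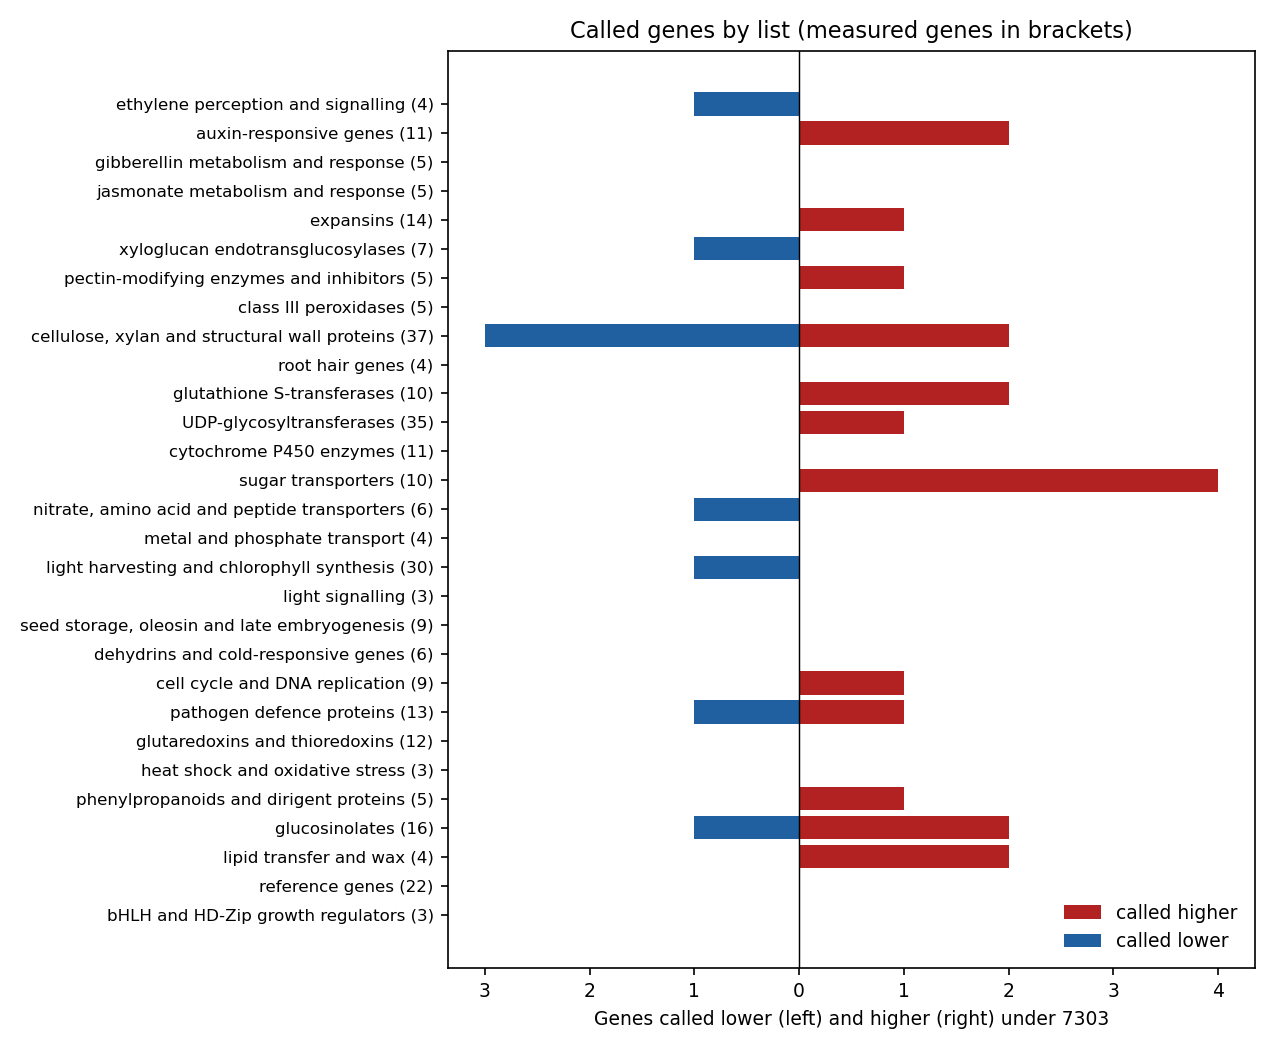
Number of called genes in each list with 3 or more measured genes (measured number in brackets), lower to the left in blue and higher to the right in red. Sugar transporters show 4 rises and no fall, cellulose, xylan and structural wall proteins 2 rises and 3 falls, and reference genes none.

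Because the untreated arrays differed, the called changes were set against each of them alone. Among probe sets that rose, the median change was 1.52 against replicate 1 and 1.15 against replicate 2, and it was the larger against replicate 1 in 371 of 441. Among those that fell, it was -1.35 and -1.18, with the larger fall against replicate 1 in 155 of 255. Over all tested probe sets 10095 of 14830 were farther from replicate 1. Every one of the 696 kept its direction when any 1 of the 12 arrays was left out. This was fixed in advance, since both treated arrays lay on one side of both untreated ones in each. The number that passed did not hold: it was 21 without replicate 1 of untreated eto1-4, 836 without its replicate 2, and 5 and 2 without replicate 1 and replicate 2 of 7303. Leaving out either Col-0 array, which touches neither group but alters the shared estimate of spread, gave 346. Of the called genes, 98 were named by rule or carry a symbol, and 5 of these still passed without replicate 1 of untreated eto1-4: AT4G11190, AT2G43535, SWEET16, AT3G51410 and AT5G19890. Without replicate 1 of 7303 those that passed were AT4G11190 and SWEET16, and without its replicate 2 only AT4G11190.

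**Figure D5:**
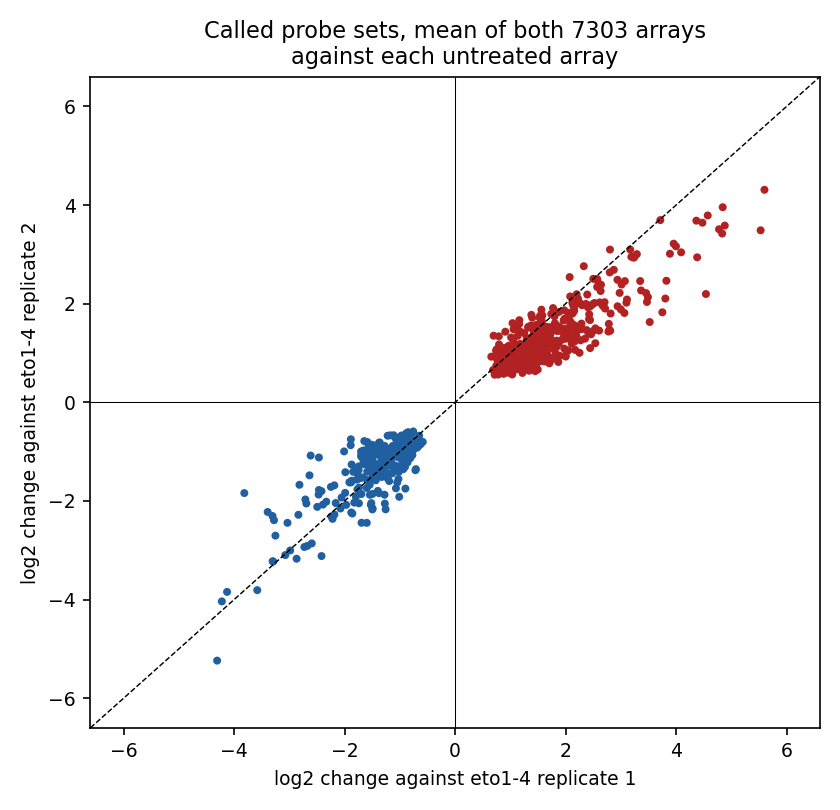
Change of each of the 696 called probe sets (log2 scale) from untreated eto1-4 replicate 1 (horizontal) and from replicate 2 (vertical) to the mean of both 7303 arrays; the dashed line marks equal change. All points lie in the quadrants of equal sign, as they must where the groups do not overlap. Most red points fall below the line, where the change against replicate 1 is the larger.

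Set against wild-type Col-0, which shares no array with untreated eto1-4, the treated mutant differed in 0 probe sets at the threshold in limma, although 3493 had an unadjusted p under 0.05 and the lowest adjusted p was 0.0516. The positions of the called probe sets relative to the wild type can be given without that test. These probe sets were selected on the same 7303 arrays, which favours positions beyond the wild type in the direction of the change. Replicate 1 of Col-0 lacked the spike (median signal 13.5), and the part of this was not tested. Of the 441 that rose, 334 had both 7303 arrays above both Col-0 arrays, 24 had them below and 83 overlapped, with a median difference of 0.55. Of the 255 that fell, 182 lay below both Col-0 arrays, 19 above and 54 overlapped, with a median of -0.55. Over all tested probe sets, 4215 (28.4%) lay above, 5649 (38.1%) below and 4966 overlapped. RTE1 differed from Col-0 by 0.37 (95% interval -0.30 to 1.04) and GH3.17 by 0.40 (-0.55 to 1.36). SWEET16 stood 0.92 above the wild type (0.44 to 1.39). TBL41 stood 1.75 below it, with Col-0 at 415 and 448. AT4G11190, by contrast, stood at 3050 and 3404 in the wild type, above the treated mutant.

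The same dose of 10 µM allows 7303 to be set beside AVG, 9393 and 9370 in the same mutant, in 3 pairs of treatments. Both arrays of 7303 and of AVG carried the spike, whereas replicate 1 of 9393 and of 9370 lacked it (median signal 5.4 and 6.2). Spike status therefore differed in the pairs with 9393 and 9370. No probe set passed in limma in any pair: the lowest adjusted p was 0.9999 against AVG, 0.873 against 9393 and 0.429 against 9370, with 587, 761 and 960 at an unadjusted p under 0.05. Over the 3 pairs together the lowest adjusted p was 0.924. These tests do not show that the compounds act alike, since the 95% interval of a named gene's difference between 7303 and AVG was 1.48 wide at the median. The changes from untreated eto1-4 share the same 2 untreated arrays, so they are given side by side only. The probe sets that rose under 7303 had a median change of 1.34 with 7303, 1.18 with AVG, 0.97 with 9393 and 1.12 with 9370. Those that fell had medians of -1.29, -1.18, -0.98 and -1.15 in that order. These probe sets were selected on the 7303 arrays, which favours 7303 in these medians.

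Single genes are given as examples of how the treatments stood to each other, and are not the nearest and farthest of all. SWEET17 was at 1694 and 2298 with 7303, 1700 and 914 with AVG, 571 and 2163 with 9393, and 912 and 2355 with 9370. The signals with 7303 overlapped those of each other treatment, and the difference from AVG was 0.65 (95% interval -0.71 to 2.02). XTH19 differed between 7303 and AVG by 0.14 (-0.31 to 0.59) and AT5G19890 by 0.11 (-1.10 to 1.31). The widest gap to AVG among these genes was that of cwINV6, at 555 and 450 with 7303 and 93.5 and 182 with AVG. Its difference was 1.76 (1.004 to 2.52; unadjusted p = 0.000409, adjusted p = 0.9999), and with 237 and 228 under 9393 and 436 and 693 under 9370 the 7303 signals overlapped those of 9370 alone. LBD29 was at 83.1 and 67.5 with AVG, a difference of 1.09 (0.36 to 1.81; adjusted p = 0.9999). These intervals are for single genes, unadjusted for the number looked at.

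The plastid genes stood apart in another pairing. The median change of the 68 from untreated eto1-4 was -0.68 with 7303, -0.40 with AVG, -0.21 with 9393 and -0.02 with 9370. The gene psbD was at 614 and 556 with 7303, 647 and 699 with AVG, 1085 and 1262 with 9393, and 1332 and 1637 with 9370. Its signals with 7303 were thus below those of all 3 other treatments, and the difference from 9370 was -1.31 (95% interval -1.71 to -0.90; unadjusted p = 2.89e-05, adjusted p = 0.429). For rbcL the difference from 9370 was -1.61 (-2.33 to -0.90; adjusted p = 0.647). Neither passed after adjustment over all probe sets.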

How the data were processed

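RNA of whole seedlings was hybridised to 12 Affymetrix arrays in 6 groups of 2, a number that limits the precision. The deposited values are 1 signal intensity per probe set, made by the authors with MAS5, per the submitters' processing notes; all arrays shared 1 trimmed mean. Of 22810 probe sets, 64 controls were left out, and 14830 were tested (those that exceeded the 40th percentile of the array in 2 or more arrays) as log2(signal + 22.4). This offset, the 20th percentile of all signals, understates changes of dim genes. All arrays entered limma 3.58.1 in R 4.3.3 with 6 group means and an intensity trend (degrees of freedom: 6 residual, 4.07 prior), with Benjamini-Hochberg adjustment per comparison and a threshold of 0.05. Replicates are not tied to separate cultures, so p-values reflect only the spread of these arrays, possibly technical.

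Of all probe sets 13436 name 1 gene, 503 several, 77 match no locus, and 8730 are unnamed here; symbols and plastid location are those of assembly TAIR10.1. A gene is given by its brightest probe set. Named by rule were the 25 largest rises and falls and the 10 lowest adjusted p among called single-gene probe sets, called list members, and all measured ethylene, auxin and marker genes. Members and lists were chosen with earlier results of these data known. A list holds only genes whose symbol or synonym matched its pattern, so other members of a family can be missing from it. No array passed the planned limit for spiked arrays, so a median spike signal over 50 was used. In 5 simulations of this comparison (200 of 14830 genes changed), 33.3% of changes of 1, 78.9% of 2 and 95.8% of 3 on the log2 scale were recovered, and 5.51% of calls were false. Other offsets, filters, scalings, blocks and left-out arrays were tried. Promoter sequences were not analysed here.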

Additional observations from a re-analysis of the deposited data

Results flagged for a closer look

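The poly-A spike controls, which are added to RNA before labelling and enter no comparison, gave a higher median signal with 7303 than in untreated eto1-4. The lower of the 2 arrays with 7303 had 124, against 12.1 and 74.1 on the untreated arrays. Both arrays with 7303 carried the spike, so labelling with and without it could not be compared within the treatment. With spike status as a block 846 probe sets passed, 644 of them among the 696, and with spiked arrays alone 737 passed, 403 of them among the 696.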

How the results depend on the processing

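The treated and untreated arrays did not overlap in any of the 696 probe sets, so leaving out 1 array could not reverse their direction. These probe sets kept their direction wherever they were tested (584 of 584 under the stricter filter). Their number was 427 with no filter, which adds dim probe sets to the adjustment, and 2 to 1010 with 1 array left out, the cause of which was not tested. It lay from 586 to 1008 in the other settings. The number of called genes on the lists was 32; it was 21 with no filter and 0 to 44 with 1 array left out. Median centring, which shifts the median of all genes by 0.104, called 803, of which 75% were higher, against 63.4%. The replicate block called 1008, all 696 among them, but replicate numbers did not pair the arrays of 7303 and eto1-4, whose deviations correlated at 0.0047. Over all pairs of groups the range was -0.27 to 0.78. The highest were 9393 with 9370 (0.78) and eto1-4 with 9393 (0.38) and 9370 (0.31), groups whose replicate 1 lacked the spike. Col-0, whose replicate 1 also lacked it, had 0.18, 0.11 and 0.03 with eto1-4, 9393 and 9370. The replicate block did not remove the call of any named gene. For 7303 against AVG, 9393 and 9370 the number passing stayed at 0, except 1 against AVG without AVG replicate 2 (0 to 1). With spiked arrays only, 64 of 98 named genes passed, and with spike status as a block 92, not AT4G37220, AT2G30540, AT4G18650, AT5G57760, rbcL or AAE16, whereas XTH26 passed at -2.06 (adjusted p = 0.0416). Direction reversed in genes that had not passed: with 1 array left out, RTH ranged from -0.10 to 0.30, ETP2 from -0.33 to 0.087, EXPA7 from -1.11 to 0.046, AT3G01570 from -4.65 to 0.64 and PAP85 from -6.45 to 0.28. Without eto1-4 replicate 1 and in spiked arrays only, AT3G01570 was at 0.64 and PAP85 at 0.28. The causes were not tested.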
